A study of Mus musculus with 6 samples.

Results

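Prostanoids are lipid mediators made from arachidonic acid, which phospholipases release from membranes and monoacylglycerol lipase supplies in brain from endocannabinoid. The cyclooxygenases turn arachidonic acid into an unstable endoperoxide, terminal synthases convert that into prostaglandin E, prostaglandin D, prostacyclin or thromboxane, and a dehydrogenase begins their inactivation. In brain they are known for fever, pain, sleep and the control of blood flow by neuronal activity. The 9 enzymes described here are the cyclooxygenases Ptgs1 and Ptgs2, the prostaglandin E synthases Ptges, Ptges2 and Ptges3, the prostaglandin D synthase Ptgds, the prostacyclin synthase Ptgis, the thromboxane synthase Tbxas1 and the dehydrogenase Hpgd. They were chosen by name, and both they and the gene lists set beside them were chosen with earlier results of these data known. All non-control probes carrying the names of the 9 enzymes were taken, which gave 16 probes on 25 spots. The array holds 39429 non-control probes on 43020 spots, under 29608 gene or transcript names.

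Total RNA was measured from brain tissue of 3 Pla2g2e knockout and 3 wild-type samples, each on its own 1-colour Agilent array. Pla2g2e encodes a secreted phospholipase A2. All 6 samples are titled sham, male and of C57BL/6N background, but the treatment text attached to every sample names a middle cerebral artery occlusion of 60 min, and the labels do not settle which holds. The labels name neither the deleted exons nor the brain region. They also do not say whether the replicates were separate animals, so the spread behind each p-value may be technical.

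Levels are given as the log2 of the processed signal minus the 75th percentile of the same array, so 0 is that percentile. Since probes differ in brightness, levels are compared between arrays for 1 probe and not between probes. Between 82.0% and 85.3% of spots were well above background per array and 0 were saturated. The number of arrays limits the precision. Knockout 1 shared a slide with the 3 wild-type arrays, whereas knockout 2 and knockout 3 were on the other slide. All 10 neuron markers (Snap25 and Rbfox3 among them) were well above background on all 6 arrays. The 2 probes of Pla2g2e were dim, at -7.59 ± 0.46 in knockout and -7.01 ± 0.30 in wild type for one and -8.42 ± 0.03 in knockout and -8.74 ± 0.35 in wild type for the other (SD, n = 3 each). Neither difference passed the test (limma, Benjamini-Hochberg adjusted p = 0.437 and 0.494), and since the deleted sequence is not named, neither probe checks the genotype.

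The probes behind the results are shown by 30 bases of each 60-base oligonucleotide, because several enzymes have probes that did not read alike. Capitals mark a polyadenylation hexamer, which lies shortly before the end of many messenger RNAs. The common form AATAAA and its usual variant, which is spelled ATTAAA, were searched on the probe's own strand.
Ptgs2, chr1:151954744-151954803, plus strand: ctgttggaatttacgcataaagcagactgc
Ptges probe 1, chr2:30748214-30748273, minus strand: gttgtcctcacaggccgtgtggtacacacc
Ptges probe 2, chr2:30744995-30745054, minus strand: aagtcagccccaATTAAAtgctttccttta
Ptgds, chr2:25322232-25322291, minus strand: ccttgacaaagaAATAAAagtccaaagcaa
Ptgis probe 1, chr2:167017317-167017376, minus strand: cattctggtcagtcctcctacatcaattaa
Ptgis probe 2, chr2:167028696-167028755, minus strand: gcaggaaaagctAATAAAagctctgtatct
Hpgd probe 1, chr8:58798941-58799000, plus strand: cattactcgtaaaagctccattaacctcct
Hpgd probe 2, chr8:58799399-58799458, plus strand: gaaatatttagtAATAAAagcttgtccggg
Coordinates are those of the files (mm9) and cover the whole probe. A hexamer was present in 5 of the 16 member probes and in 16.7% of all probes on the array. Without an mm9 annotation, the part of the transcript under a probe is given only as the base position in the files.

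Of the 16 probes, 15 were well above background on all 6 arrays and were tested. None passed an adjusted p of 0.05 in limma with Benjamini-Hochberg adjustment over 31954 probes (adjusted p between 0.321 and 0.944). The share of all probes tested that passed was 0%. An unadjusted p under 0.05 was reached by 2 of the 15 (13.3%), against 12.1% of all probes tested. Of these, 1 was higher and 1 lower, against 3.05% higher and 9.06% lower among all probes. The knockout and wild-type arrays did not overlap for 4 of the 15 probes (26.7%), 2 of them higher and 2 lower in knockout, against 19.4% of all probes tested, 7.34% higher and 12% lower. Non-overlap depended on the scaling of the arrays. Under quantile normalization it held for 2 member probes (Ptgs2 and Ptgds), against 18.3% of all probes, and under median centring for 2 (Ptgs2 and Ptges2), against 29.4%. As reported, both member shares lie near those of the whole array. The median difference, knockout minus wild type, was -0.04 over the member probes and -0.01 over all probes tested. By sign, 5 probes were higher and 10 lower, and 52.6% of all probes were lower. With each array centred on its median in place of the 75th percentile, all probes shifted to a median difference of 0.13, and 12 member probes were higher and 3 lower.

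**Figure D1:**
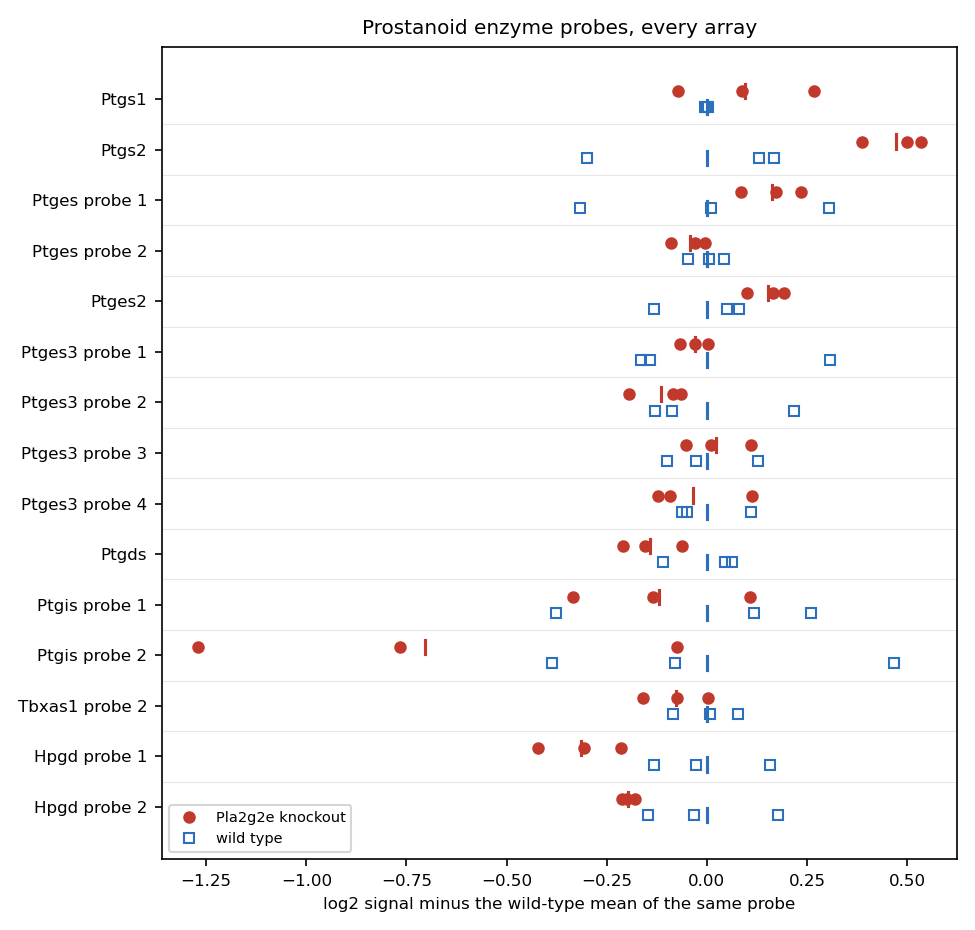
Each row is 1 probe, filled circles are the 3 knockout arrays and open squares the 3 wild-type arrays, as log2 signal minus that probe's wild-type mean, with short bars at the group means. The groups do not overlap for Ptgs2, Ptges2 and both Hpgd probes with the reported scaling, and Ptgis probe 2 has the widest spread of the tested probes.

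The inducible cyclooxygenase Ptgs2, which in forebrain neurons is raised by synaptic activity, had the highest positive difference of the member probes. Its levels were -1.06, -0.92 and -0.95 on the knockout arrays, against -1.32, -1.75 and -1.28 on the wild-type arrays. Every knockout array lay above every wild-type array, and wild type 2 was the lowest of the 6. The group means were -0.98 ± 0.08 in knockout and -1.45 ± 0.26 in wild type (SD, n = 3 each). The difference was 0.47 ± 0.14 (SE), or 1.39-fold with a 95% interval of 1.09 to 1.76. It reached an unadjusted p of 0.0148 in limma but an adjusted p of 0.321. Relative to the median of all probes it was 0.48. Either way of centring the arrays gives nearly this value by construction, since each subtracts a single value per array. On the slide that held both genotypes the difference was 0.39, and without wild type 2 it was 0.32.

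The Ptgs2 probe was printed on 10 spots per array, which gives a measure of the error within an array. The software flagged 2 spots on knockout arrays and 7 on wild-type arrays, and these were left out. The SD over the remaining spots of an array was between 0.0244 and 0.0541. The lowest of 28 spots used on the knockout arrays was -1.13, and the highest of 23 spots used on the wild-type arrays was -1.23. With the flagged spots included, the SD within an array was up to 0.125, and the lowest knockout spot, at -1.34, lay below the highest wild-type spot. The array means over all 10 spots were -1.06, -0.95 and -0.99 in knockout, against -1.34, -1.76 and -1.29 in wild type, and did not overlap. Spots of 1 array are not replicates and were averaged before the test.

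**Figure D2:**
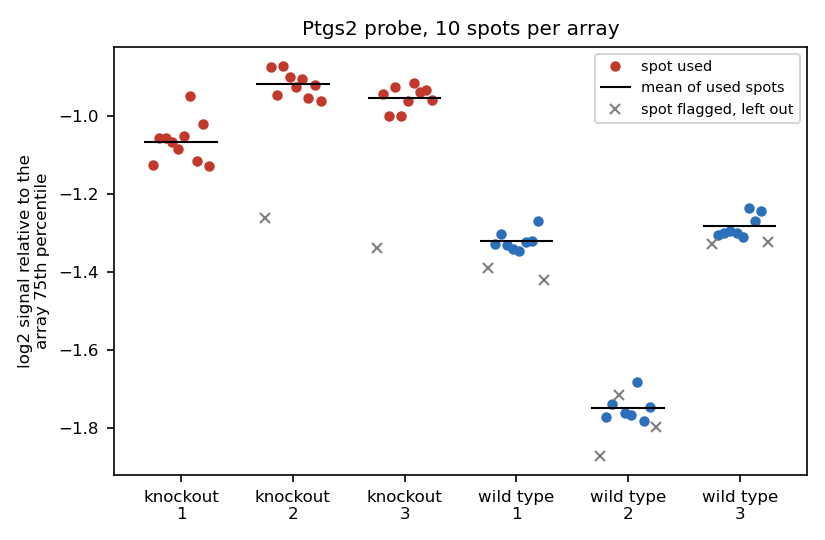
Each point is 1 of 10 Ptgs2 spots on an array, on the log2 scale relative to the array's 75th percentile, with the 3 knockout arrays left and the 3 wild-type arrays right. Lines are means of the spots used and crosses are flagged spots. Used spots reach down to -1.13 in knockout and up to -1.23 in wild type, and a flagged knockout spot lies at -1.34.

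A list of 11 other immediate early genes, which like Ptgs2 are switched on quickly by neuronal activity, was set beside it. All 11 were higher in knockout, as they were with each way of scaling the arrays, with a median difference of 0.47, and 0 passed the adjusted test. Their summed linear signal, as multiples of the 75th percentile, was 138.41 to 151.68 in knockout and 72.5 to 138.7 in wild type. The median deviation of the list from its mean over the arrays was 0.37, 0.11 and 0.24 on the knockout arrays, against -0.15, 0.13 and -0.70 on the wild-type arrays. The lowest array of the list was wild type 3, whereas the lowest array of Ptgs2 was wild type 2. Without wild type 3, 10 of the 11 genes were higher, with a median difference of 0.25, and the Ptgs2 difference was 0.56. Wild type 3 also stood highest in marker lists, with a median deviation of 1.39 for striatum, 0.96 for choroid plexus and 0.61 for blood leukocytes. The 10 striatal markers summed to 18.7 to 21.3 in knockout and 17.6 to 61.0 in wild type, and all 10 were lower in knockout, or 8 without wild type 3. The neuron markers had a median difference of 0.03, and 0.17 with arrays centred on their medians, beside 0.13 over all probes. The part of these lists in the Ptgs2 difference was not tested.

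The promoter of Ptgs2 is shown because the factors that bind a cyclic AMP response element and an E-box are textbook regulators of this gene. Windows of 250 bases before to 50 bases after the RefSeq start (GRCm38.p6) were searched on both strands for the half-site of the response element, spelled CGTCA. The E-box was searched as CACGTG. The TATA box, which when present lies a short way upstream of the start, was searched as TATAAA. A window was given for 8 of the 9 members. Capitals mark the motifs.
Ptgs2, chr1:150100033-150100062, plus strand: agtcaccactaCGTCACGTGgagtccgctt
Hpgd, chr8:56294544-56294573, plus strand: cacggagtgggcTATAAAagctgctgcggc
In Ptgs2 the half-site began 14 bases after the start and overlapped the E-box. Each of the 3 motifs was found in 2 of the 8 member promoters, against 20.8% of 32851 promoters for the half-site, 7.15% for the E-box and 13.6% for the TATA box. The half-site was also found in Ptges3, the E-box in Ptges2 and the TATA letters in Tbxas1. Those letters began 5 bases after the annotated start in Hpgd and 13 and 11 bases before it in Tbxas1. These are matches of letters only.

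Ptgs1, the constitutive cyclooxygenase, which in brain is known from microglia, did not separate the genotypes. Its levels were 0.098, 0.44 and 0.26 on the knockout arrays, against 0.16, 0.17 and 0.17 on the wild-type arrays. The wild-type arrays lay within the range of the knockout arrays. The difference was 0.09 ± 0.10 (SE, limma adjusted p = 0.715), with a 95% interval of -0.15 to 0.34. It was -0.07 on the slide that held both genotypes, 0.18 without knockout 1 and 0.0078 without knockout 2. With median centring it was 0.24, or 0.10 relative to the median of all probes. Microglia markers, including Tmem119 and P2ry12, were 4 higher and 6 lower, with a median difference of -0.02. All 10 were higher with arrays centred on their medians, with a median difference of 0.12, beside 0.13 over all probes. Their summed signal was 59.4 to 69.9 in knockout and 63.3 to 72.9 in wild type.

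Among the prostaglandin E synthases, Ptges2, a membrane-associated enzyme, had knockout arrays above all wild-type arrays. Its levels were 1.37, 1.28 and 1.35 on the knockout arrays, against 1.26, 1.23 and 1.05 on the wild-type arrays. The gap between knockout 2 and wild type 1 was small, and wild type 3 was the lowest. The difference was 0.15 ± 0.08 (SE), with a 95% interval of -0.05 to 0.35 and a limma adjusted p of 0.495. It was 0.09 without wild type 3.

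Ptges, the inducible microsomal synthase that is coupled to Ptgs2 in inflammation, was read by 2 probes whose values correlated negatively over the arrays. Probe 1 was dim, at -4.43, -4.52 and -4.37 on the knockout arrays, against -4.29, -4.59 and -4.92 on the wild-type arrays. Probe 2 was bright, at 3.91, 3.94 and 3.86 on the knockout arrays, against 3.90, 3.95 and 3.99 on the wild-type arrays. The groups overlapped for both. The difference was 0.16 ± 0.16 for probe 1 and -0.04 ± 0.06 for probe 2 (SE, limma adjusted p = 0.698 and 0.814). Without wild type 3 the difference of probe 1 was 0.0062. Pearson's r between the probes over the 6 arrays was -0.88, but probe 2 was nearly flat, with a range of 0.13. The files place probe 1 at base 364 and probe 2 at base 3583 of their transcripts.

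Ptges3, the cytosolic synthase that is also the p23 co-chaperone of Hsp90, had 4 probes within chr10:127513224-127514310 of mm9. Their levels ranged from 0.50 to 0.98 for probe 1, which is the lowest and the highest of 6 arrays, both in wild type. The differences were -0.03, -0.11, 0.02 and -0.03 for probes 1 to 4, and the groups overlapped in all 4. For probe 2 the levels were 2.14, 2.16 and 2.03 in knockout, against 2.10, 2.44 and 2.14 in wild type. Its difference was -0.0058 without wild type 2. Wild type 2 was the highest array for this probe, and it was the highest of the 6 arrays for 5 of the 15 tested member probes. Those were Ptges3 probes 1, 2 and 3 and both Hpgd probes, and probes of 1 gene are not separate evidence. The correlation between pairs of Ptges3 probes over the arrays was 0.66 to 0.91.

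Ptgds, the lipocalin-type prostaglandin D synthase, is known from meninges, choroid plexus and oligodendrocytes. Its levels were 6.21, 6.36 and 6.27 on the knockout arrays, against 6.31, 6.47 and 6.48 on the wild-type arrays. Knockout 2 lay above wild type 1, so the groups overlapped. The group means were 6.28 ± 0.08 in knockout and 6.42 ± 0.09 in wild type (SD, n = 3 each). The difference was -0.14 ± 0.08 (SE), with a 95% interval of -0.34 to 0.06 and a limma adjusted p of 0.516. It was 0.0013 with arrays centred on their medians, or -0.13 relative to the median of all probes.

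Most markers of these 3 sources were lower in knockout as well. All 12 meningeal and fibroblast markers were lower in knockout, with a median difference of -0.46. All 10 choroid plexus markers were lower, with a median of -0.58, and 9 of 10 oligodendrocyte markers, with a median of -0.33. The exception, the myelin gene Mbp, was higher in knockout by 0.33 ± 0.09 (SE, limma adjusted p = 0.301). It was the 1 oligodendrocyte marker of 10 whose groups did not overlap. Groups also did not overlap for 8 of the 12 meningeal and 2 of the 10 choroid plexus markers, all lower in knockout. The share of all genes tested without overlap was 19.9%, with 7.53% higher in knockout. With arrays centred on their medians, 12, 10 and 8 markers of these lists were lower. The summed signal of the meningeal list was 10.1 to 14.2 in knockout and 14.0 to 20.5 in wild type. For choroid plexus it was 8.35 to 15.0 in knockout and 5.41 to 25.8 in wild type, and for oligodendrocytes 94.8 to 120.3 in knockout and 104.7 to 158.9 in wild type. None of these markers passed the adjusted test, and all were above background on all 6 arrays. The meningeal list, like Ptgds, was lowest on knockout 1 (-0.43) and highest on wild type 3 (0.51), extremes that the striatal list shared. The choroid plexus and oligodendrocyte lists did not follow Ptgds array by array. The choroid plexus list was above its mean on knockout 1 (0.21), where Ptgds was lowest, and lowest on wild type 2 (-0.78). The oligodendrocyte list was below its mean on wild type 3 (-0.23), where Ptgds was highest. The part of these lists in the Ptgds values was not tested. In bulk tissue, fewer cells of a type and less RNA per cell cannot be told apart.

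Ptgis, the prostacyclin synthase of vessel walls and fibroblasts, had the widest spread of the tested member probes. Probe 2, which is designed on a RefSeq transcript, read -3.33, -2.83 and -2.14 on the knockout arrays, against -2.14, -2.45 and -1.60 on the wild-type arrays. Knockout 3 lay with the wild-type arrays, so the groups overlapped. The group means were -2.77 ± 0.60 in knockout and -2.06 ± 0.43 in wild type (SD, n = 3 each). The difference was -0.70 ± 0.35 (SE), with a 95% interval of -1.57 to 0.16 and a limma adjusted p of 0.470. It was -0.42 without knockout 1, -0.47 without wild type 3, -1.02 without knockout 3 and -1.27 on the slide that held both genotypes.

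Probe 1 of Ptgis, designed on an Ensembl transcript, read -5.12, -5.56 and -5.36 on the knockout arrays, against -5.61, -5.11 and -4.97 on the wild-type arrays. Its difference was -0.12 ± 0.20 (SE, limma adjusted p = 0.827). Over the 6 arrays its correlation with probe 2 was 0.13. The meningeal list deviated by -0.43, -0.20 and -0.09 on the knockout arrays, against 0.15, 0.0021 and 0.51 on the wild-type arrays. Both this list and Ptgis probe 2 were lowest on knockout 1 and highest on wild type 3. The striatal list had the same extremes, at -0.46 and 1.39, so the match is not particular to the meningeal list. Endothelial markers, such as Cldn5 and Pecam1, had a median difference of -0.06, which was 0.03 under quantile normalization and 0.08 under median centring. Over all probes the medians were 0.01 and 0.13 with these scalings. The part of these cells in the Ptgis values was not tested.

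**Figure D3:**
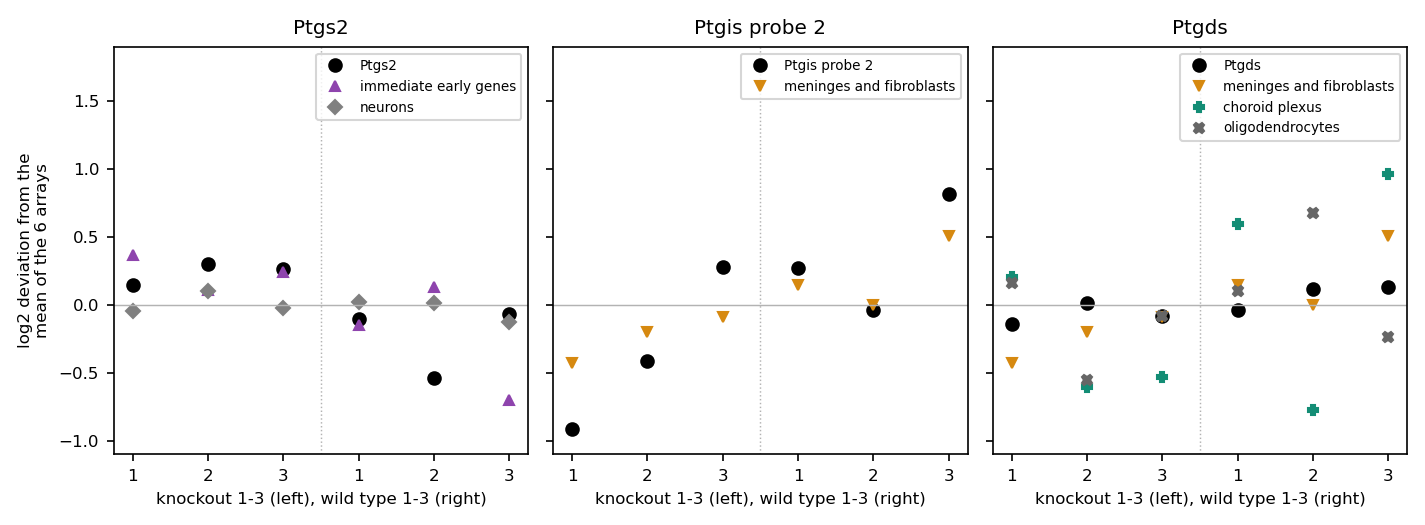
Points are the log2 deviation of each array from the mean of the 6 arrays, for 1 member (black circles) and the median of marker lists (coloured or grey symbols), with knockout 1 to 3 left and wild type 1 to 3 right of the dotted line. Ptgis probe 2 and the meningeal list both have their lowest value on knockout 1 and their highest on wild type 3, whereas Ptgs2 is lowest on wild type 2 and the immediate early genes on wild type 3.

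Tbxas1, the thromboxane synthase of platelets and macrophages, was tested with 1 of its 2 probes. Probe 2 (chr6:39034356-39034415, mm9) read -3.12, -3.04 and -2.96 on the knockout arrays, against -3.05, -2.95 and -2.89 on the wild-type arrays. The groups overlapped, and the difference was -0.08 ± 0.08 (SE, limma adjusted p = 0.709). Probe 1, designed on an Ensembl transcript, was well above background on 1 of 3 knockout arrays and 0 of 3 wild-type arrays and was not tested.

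Hpgd, the dehydrogenase that oxidises prostaglandins as the first step of their inactivation, was lower on every knockout array than on every wild-type array with both of its probes. With quantile normalization or median centring, the groups overlapped for both. Probe 1 was dim, with a signal of 4.01 to 5.75 times the local background, against 12.3 to 15.6 times for probe 2. Probe 1 read -4.41, -4.62 and -4.51 in knockout, against -4.33, -4.04 and -4.22 in wild type. Probe 2 read -3.13, -3.11 and -3.09 in knockout, against -3.06, -2.74 and -2.95 in wild type. Wild type 1 was the wild-type array closest to the knockout arrays, next to knockout 1 for probe 1 and knockout 3 for probe 2, and both gaps were narrow. The probes read the same RNA samples, so they are not separate evidence, and their correlation over the arrays was 0.90.

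For Hpgd probe 1 the group means were -4.51 ± 0.10 in knockout and -4.20 ± 0.15 in wild type (SD, n = 3 each). The difference was -0.31 ± 0.10 (SE), 0.804-fold in knockout over wild type, with an unadjusted p of 0.0214 and an adjusted p of 0.347 in limma. For probe 2 the means were -3.11 ± 0.02 in knockout and -2.91 ± 0.17 in wild type (SD, n = 3 each). Its difference was -0.20 ± 0.10 (SE, limma adjusted p = 0.462), and -0.11 without wild type 2. On the slide that held both genotypes both probes gave -0.21. Relative to the median of all probes, the differences were -0.30 and -0.19. Both ways of centring subtract a single value per array, so by construction they hardly change these relative values. Under quantile normalization the differences were -0.16 and -0.11.

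**Figure D4:**
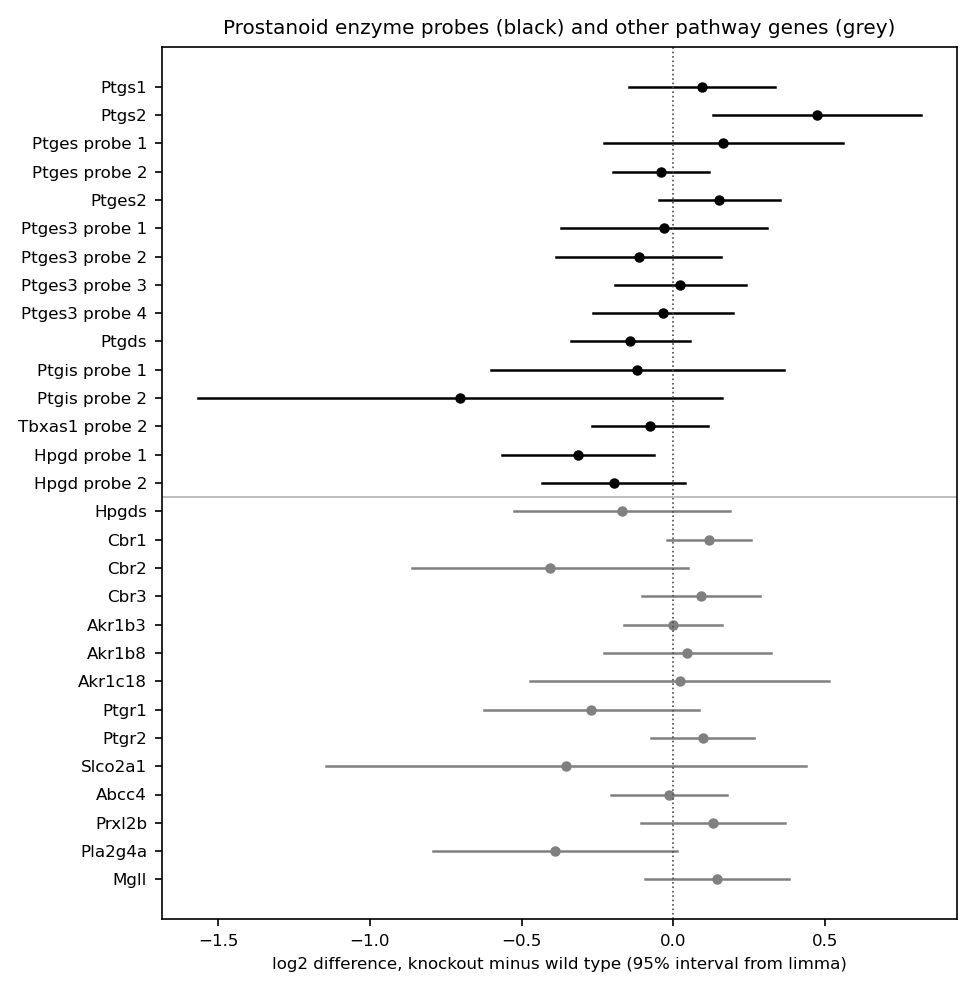
Points are log2 differences, knockout minus wild type, with 95% intervals from limma, for 15 member probes in black and 14 other pathway genes in grey. The intervals of Ptgs2 (0.13 to 0.82) and Hpgd probe 1 (-0.56 to -0.07) leave out 0 before adjustment for the number of probes.

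A list of 14 further genes of the pathway, each by its brightest tested probe, was balanced between the directions. It holds enzymes that release arachidonic acid (Pla2g4a, the cytosolic phospholipase A2, and Mgll, the monoacylglycerol lipase), reductases and synthases, and the transporters Slco2a1 and Abcc4. Of the 14, 7 were higher and 7 lower in knockout, with a median difference of 0.01 (9 higher and 5 lower with median centring), against -0.01 over 23864 genes, of which 53.2% were lower. None passed the adjusted test in limma, and none reached an unadjusted p under 0.05, against 12.5% of all genes tested. The groups did not overlap for 1 of 14, against 19.9% of all genes tested (7.53% higher). That gene was Cbr1, a carbonyl reductase that can act on prostaglandin E, at 2.48, 2.51 and 2.51 in knockout, against 2.42, 2.37 and 2.37 in wild type.

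The most negative difference of that list was in Cbr2, another carbonyl reductase, at -0.41 ± 0.19 (SE, limma adjusted p = 0.429). Pla2g4a, which supplies the substrate of the cyclooxygenases, read -2.42, -2.39 and -2.26 in knockout, against -2.29, -1.95 and -1.66 in wild type. Knockout 3 lay above wild type 1, and the difference was -0.39 ± 0.16 (SE, limma adjusted p = 0.404). Slco2a1, the transporter that carries prostaglandins to Hpgd inside cells, had a difference of -0.35 ± 0.32, and Ptgr1, which reduces the product of Hpgd, one of -0.27 ± 0.14 (SE). Neither passed (limma adjusted p = 0.666 and 0.483). Hpgds, the haematopoietic prostaglandin D synthase, had a difference of -0.17 ± 0.15 (SE, limma adjusted p = 0.648), and Mgll one of 0.14 ± 0.10 (SE, limma adjusted p = 0.562).

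The genes whose values over the 6 arrays ran most like a member were taken by Pearson's r among 4230 or 4231 named genes that varied by at least 0.58 on the log2 scale. With 6 arrays and so many genes, such high values are a description only. For Ptgs2 they were Olfr495 (r = 0.98), Flrt3 (0.97) and Mogat1 (0.96), none of which is in the immediate early list. For Ptgis probe 2 they were Slc47a2, Anxa2 and Tspan8 (all 0.99). For Ptgds they were Tbc1d16 (0.98), Fam217a and Clec14a (both 0.97). For Hpgd probe 2 they were Dynlt1f (0.97), Mkrn3 and Chat (both 0.96). For Ptges2 they were the immediate early gene Ier2 (0.99), Cds1 and Nfkbie (both 0.98).

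Differences were recomputed under 18 alternatives in normalization, background, filter, slide and arrays used. Not all of these could turn a sign. The filters, the replicate block and the choice of 1 probe a gene left the reported differences unchanged. Slide as a fixed block gave the same differences as the single slide that held both genotypes. The sign of 6 member probes held under each alternative that gave a value: Ptgs2, Ptges probe 1, Ptges2, Ptgis probe 2 and both Hpgd probes. No member probe passed the adjusted test under any of them. Ptgs2 lay between 0.32 and 0.62, Hpgd probe 1 between -0.38 and -0.16 and Ptgis probe 2 by itself between -1.27 and -0.42.

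**Figure D5:**
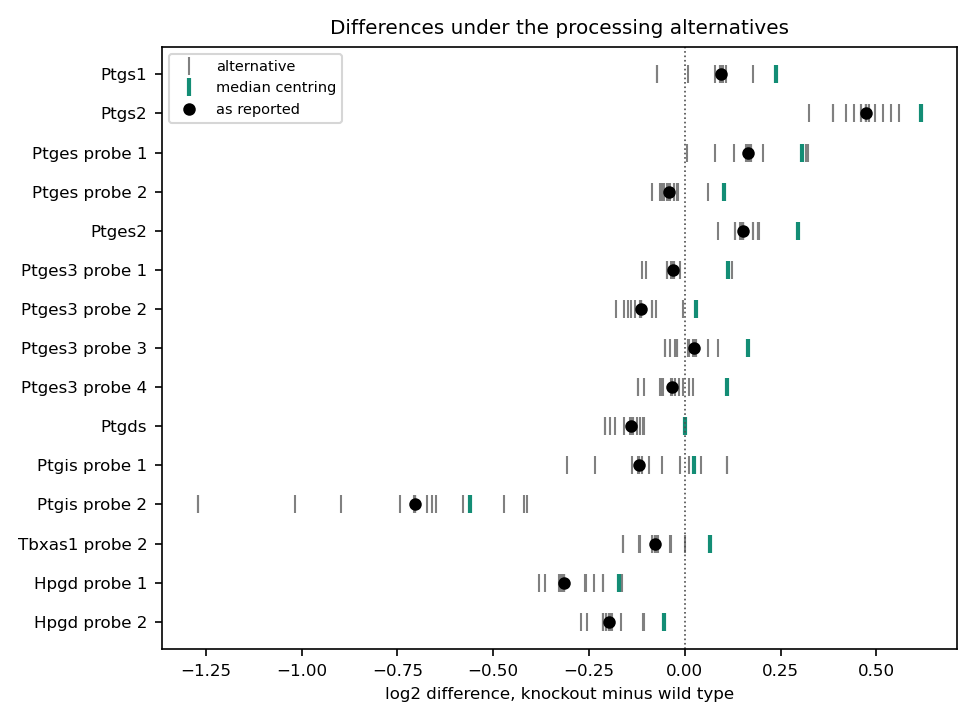
Each row is 1 member probe, the circle is the reported log2 difference (knockout minus wild type), grey ticks are the alternatives (the mean over a gene's probes is in the row of its brightest probe) and green ticks are median centring. Ptgs2 stays between 0.32 and 0.62 and Hpgd probe 1 between -0.38 and -0.16, while the 4 Ptges3 probes fall on both sides of 0.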

How the data were processed

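Spot intensity on array design 026655 (mm9 grid) came from Agilent Feature Extraction 12.1.1.1, run under GE1_1200_Jun14, per the file headers. The deposited processed signal is a background-subtracted, linear intensity, and 2368 to 3150 very dim spots per array carry a surrogate value set by the software. Flagged spots (non-uniform or population outliers, 68 to 530 per array) and 1377 control spots were left out. The log2 signals were averaged per probe and the 75th percentile over probes of each array was subtracted. Testing required a probe to be well above background throughout 1 group or both, with at least 2 values in each group. Knockout was compared with wild type per probe with limma 3.58.1 in R 4.3.3, two-sided, with Benjamini-Hochberg adjustment over 31954 probes. The code was tested on simulated data. An exact permutation test of 3 against 3 cannot go below 0.1 and was not used.

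The genes named are the members, Pla2g2e, the other pathway genes, markers, and the 3 genes most like each member in Pearson's r, of which some are printed. The members and lists were chosen with earlier results of these data known. Lists not described in the text were astrocytes (median difference -0.05, 9 genes) and red blood cells (-0.73, 3 genes), with 0 adjusted calls. Lists described in part were striatum (median difference -0.87, 10 genes) and blood leukocytes (-0.24, 8 genes), also with 0 adjusted calls. Names were looked up in a RefSeq table, which held the transcript of 29510 probes. Promoters are from RefSeq (GRCm38.p6). Alternatives changed the background correction, normalization, filter, flagged spots, slide, replicate block, probe choice and arrays used.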

Additional observations from a re-analysis of the deposited data

How the results depend on the processing

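The count of probes past the adjusted threshold in limma was 0 as reported (3867 at an unadjusted p under 0.05) and 0 under each alternative except leaving out arrays, where it ranged from 0 to 884. The 884 (674 higher, 210 lower) came without knockout 1, when each genotype was on a slide of its own, so slide and genotype cannot be told apart, and 0 were member probes. Of 258 member differences under 18 alternatives, 234 kept their sign and 24 turned it, and none of the 258 passed. The kept signs were partly fixed in advance. The filters on dim probes, the replicate block and the choice of 1 probe a gene left each reported member difference unchanged. Under quantile normalization Ptges3 probe 3 was -0.021, Ptgis probe 1 was 0.042 and Tbxas1 was 0.0015. With median centring Ptges probe 2 was 0.10, Ptges3 probes 1, 2 and 4 were 0.11, 0.028 and 0.11, Ptgds was 0.0013, Ptgis probe 1 was 0.023 and Tbxas1 was 0.066, beside a median of 0.13 over all probes. With slide as a fixed block, and equally on the slide that held both genotypes, Ptgs1 was -0.072, Ptges3 probe 3 was -0.052 and Ptgis probe 1 was 0.11. Averaged over probes of a gene, Ptges was 0.061 and Ptges3 was -0.039, against their brightest probes. Leaving out 1 array at a time, Ptges3 probe 1 ranged from -0.11 (without wild type 1) to 0.12 (without wild type 2), probe 2 from -0.18 (without wild type 1) to -0.0058 (without wild type 2), probe 3 from -0.027 (without wild type 1) to 0.087 (without wild type 2) and probe 4 from -0.11 (without knockout 2) to 0.022 (without wild type 2). Ptgis probe 1 ranged from -0.31 (without wild type 1) to 0.010 (without wild type 3). The cause was not tested, apart from the shift of all probes under median centring. Among unadjusted calls, 973 were higher and 2894 lower as reported, 1950 higher and 1707 lower under quantile normalization, and 4210 higher and 1334 lower under median centring.

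Same-numbered knockout and wild-type arrays deviated with correlations of -0.036, -0.15 and -0.10. Arrays of different numbers were not compared, so these values do not settle whether the numbers mark pairs. The replicate block called 0 probes, with 3349 at an unadjusted p under 0.05, against 3867 without it. Slide as a fixed block gave 1758 and the single slide 1353 at that threshold, with 1 knockout array left on the shared slide. Dim probes, such as Ptges probe 1, Ptgis probe 1 and Hpgd probe 1, rest on signals nearer to background.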
